A study of Sus scrofa with 24 samples.

Results

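The genes described here add, remove or read methyl groups on cytosine in DNA: the methyltransferases DNMT1, DNMT3A and DNMT3B, the oxidases TET1, TET2 and TET3, the methyl-CpG binding proteins MBD1 and MBD2, and UHRF1, which brings DNMT1 to newly copied DNA. They were chosen by name, as the entries whose Entrez identifier carries these pig symbols, and all 9 were found among the 38882 listed genes. Of the 9, 8 passed the filter on low counts and were tested, and TET1 did not pass it.

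RNA was sequenced from the hippocampus of 24 piglets (PIC Camborough dams crossed with PIC 359 sires) killed at 14 days of age. Small for gestational age (SGA) piglets and their appropriate for gestational age (AGA) littermates of the same sex were fed a control formula (CON) or a formula with hydrolyzed fat (HF), in which much of the triglyceride was replaced by free fatty acids, a monoacylglycerol and lecithin. Each of the 4 groups, SGA and AGA on either formula, held 6 piglets, and the 24 came from 12 litters, so both littermates of a pair received the same formula. SGA piglets were full term and naturally delivered, and were classed by low body weight, and all piglets took colostrum before the formulas began. Replicates 1 to 3 of each group were brought in as the first cohort and replicates 4 to 6 as the second. Reads on listed genes ranged from 6204809 to 8723343 per library in AGA CON, from 6224421 to 7474872 in AGA HF, from 6017336 to 9217875 in SGA CON and from 6931595 to 9284355 in SGA HF. The neuron markers SNAP25, SYT1, SLC17A7, GAD1 and GAD2 were read in all 24 libraries, and SLC17A7 was the most abundant of them, at 1580 to 4960 CPM (reads per 1e6 reads). AGA CON replicate 2 stood apart with the lowest sum of these markers, and the diet estimates are also given without it.

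DNA methylation is copied and rewritten by a small set of enzymes. DNMT1, guided by UHRF1 to hemimethylated CpG sites, restores methylation after replication, and DNMT3A and DNMT3B write it on sites that carried none. In neurons, which no longer divide, DNMT3A also writes methylation outside CpG during early postnatal life. TET enzymes oxidize 5-methylcytosine to 5-hydroxymethylcytosine, a base that is abundant in brain, and further oxidized forms are cut out by base excision repair. MBD1 and MBD2 bind methylated CpG and recruit repressors. The counts report only transcript levels of these genes, and no methylation was measured in these libraries.

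Levels were first ordered per length, as CPM scaled by TMM factors (a normalization that corrects for differences in library composition) and divided by the exon length in kb. MBD2 came first at 18.4 ± 2.7 CPM per kb (SD, n = 24) and was above the next gene in 24 of 24 libraries. MBD1 followed at 10.24 ± 0.918 CPM per kb, and then DNMT1, whose libraries ran from 7.86 to 11.7 CPM per kb (SD of 1.0). These neighbours did not separate, since MBD1 was above DNMT1 in 13 of 24 libraries. DNMT3A came next at 9.45 ± 0.883 CPM per kb, below DNMT1 in 22 of 24 libraries. These 4 genes lay between percentiles 60.8 and 73 of the 16326 genes tested when ranked by level per length.

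A second tier held UHRF1 at 3.72 ± 0.635 and TET3 at 3.27 ± 0.321 CPM per kb (SD, n = 24), with UHRF1 above TET3 in 18 of 24 libraries. TET2 at 0.746 ± 0.116 and DNMT3B at 0.688 ± 0.16 CPM per kb formed the third, with TET2 above DNMT3B in 17 of 24 libraries. Neither of these pairs of neighbours was separated by more than the spread between libraries. TET2 and DNMT3B stood at percentiles 14.4 and 13.2 of the genes tested. Within the DNMT3 family the level per length was thus far higher for DNMT3A than for DNMT3B, and within the TET family TET3 was above TET2, without overlap between libraries in either case. The plot of level per length shows these tiers.

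**Figure D1:**
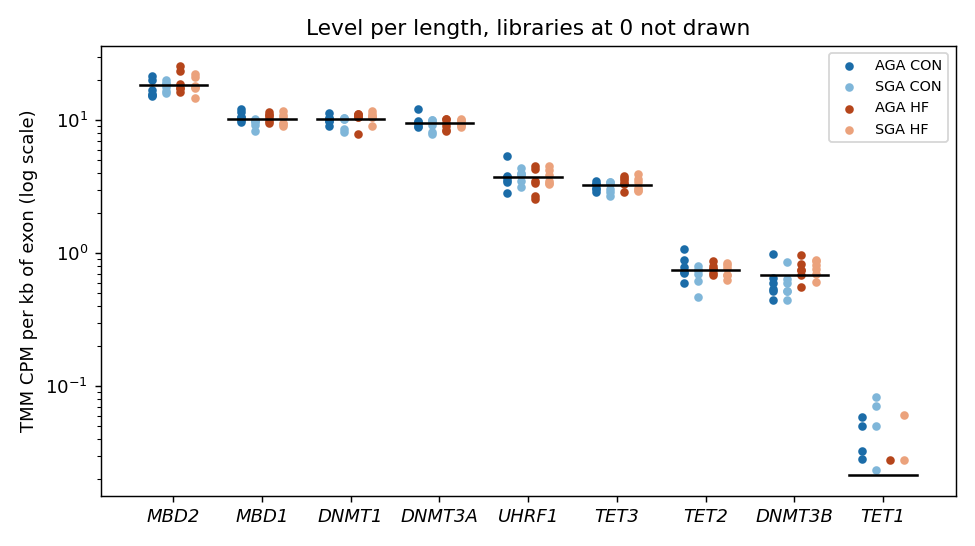
Level of each gene in TMM CPM per kb of exon on a log axis, 1 point per library coloured by group, with a black bar at the mean of 24 libraries. MBD2 is highest at a mean of 18.4, TET1 lowest at 0.0215, and the 4 groups overlap in each of the 8 tested genes. Libraries at 0, which are 13 of the 24 for TET1, are not drawn but enter the mean.

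The lengths come from the gene models in the deposited files (Sscrofa10.2), and 2 of these models have few exon records. The MBD2 model spans 113947945 to 113959372 of chromosome 1 on the minus strand, with only 4 exon records and 878 bp of exon, so its place at the top rests on that model. The TET1 model, 77728167 to 77830058 of chromosome 14 on the plus strand, has 3 exon records and 4579 bp of exon. The other 7 models have 12 to 41 exon records. How evenly reads covered short and long models was not examined, and the paper gives RNA quality only as an average over samples. The order across genes of different length therefore also rests on even coverage. DNMT1 lies at 69309511 to 69357838 of chromosome 2 on the minus strand (41 exon records, 5405 bp), on the same chromosome and strand as UHRF1 at 74678503 to 74712233 (18 exon records, 4127 bp). DNMT3A occupies 120579692 to 120663698 of chromosome 3 on the plus strand (21 exon records, 8948 bp), and DNMT3B 41282731 to 41322908 of chromosome 17 on the plus strand (24 exon records, 4406 bp). TET2 lies at 125007902 to 125139465 of chromosome 8 (12 exon records, 11216 bp), TET3 at 72074722 to 72176883 of chromosome 3 (16 exon records, 12885 bp) and MBD1 at 109589957 to 109606298 of chromosome 1 (18 exon records, 5039 bp), all on the minus strand.

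TET1 was close to the limit of detection. Its exons received 18 reads over the 24 libraries, with 0 to 3 reads in each and none in 13 of them. The group totals were 6 reads in AGA CON, 1 in AGA HF, 8 in SGA CON and 3 in SGA HF. In a single library 3 counts, the limit that a count of 0 allows, correspond to 0.323 to 0.499 CPM, and such limits cover counting error only. Reads were found in 8 of 12 CON and 3 of 12 HF libraries, which are littermates in pairs and so not independent. The first cohort held 13 of the reads and the second 5, and the mean was 0.134 CPM in males and 0.0631 CPM in females. Formula was given by litter, and TET1 was not compared between litters, so the p-values below take each piglet on its own. In a fit without the filter on low counts, TET1 had an unadjusted p of 0.0251 for diet and an FDR p of 0.676 (edgeR), where 7.08% of 27413 genes had an unadjusted p under 0.05. Between AGA HF and AGA CON these were 0.0284 and 0.692 (edgeR, background 6.26%). Between SGA HF and SGA CON the unadjusted p was 0.279, and for size it was 0.956 (edgeR). No fold change is given for TET1, since its groups held 8 reads or fewer.

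The spread between libraries was small for the abundant genes. Over all 24 libraries the coefficient of variation was 8.97% for MBD1, 9.34% for DNMT3A, 9.8% for DNMT1 and 9.84% for TET3, where counting error alone would give 5.09%, 3.97%, 4.91% and 5.63%. It was 14.7% for MBD2 against 9.07% from counting and 17.1% for UHRF1 against 9.3%. For DNMT3B, with 12 to 30 reads per library, the coefficient of variation was 23.2%, of which counting error gives 21%, and for TET2 it was 15.5% against 12.6%. The variation of DNMT3B and TET2 was thus mostly of the size that counting alone produces.

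The main effect of size asked whether SGA and AGA piglets differed over both formulas. DEGs were called at a Benjamini-Hochberg FDR p under 0.4, the lenient threshold of the study's heat map, from edgeR's quasi-likelihood test on the 4 groups, sex and 5 surrogate variables, with the FDR taken over all 7 contrasts. None of the 8 genes was a DEG for size, where 0.478% of all tested genes were. Their FDR p ranged from 0.699 to 0.989 (edgeR), and their median log2 fold change was -0.022, beside -0.002 over all genes tested. At an unadjusted p under 0.05, which 10.6% of all genes passed, 2 of the 8 were found, UHRF1 and MBD2. Neither was found without AGA CON replicate 2 (p of 0.107 and 0.128) or without AGA HF replicate 4 (0.0746 and 0.0957), and MBD2 was not found without SGA CON replicate 6 (0.0773, all edgeR). DESeq2 and limma voom on the same terms also called none of the 8.

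The maintenance pair, DNMT1 and UHRF1, gave opposite signs for size. DNMT1 ranged from 49.1 to 61.1 CPM in AGA CON (median 54.6), 42.5 to 60.8 in AGA HF (58.6), 44.2 to 56.4 in SGA CON (54.8) and 48.7 to 63 in SGA HF (57.5). The 4 groups overlapped, and AGA HF replicate 5 was the lowest of all libraries at 42.5 CPM. The log2 fold change of DNMT1 for size was -0.067 ± 0.05 (SE), with a 95% interval from -0.17 to 0.038 and an FDR p of 0.855 (edgeR). UHRF1 ranged from 11.8 to 22 CPM in AGA CON (median 15), 10.6 to 18.7 in AGA HF (14.1), 12.9 to 18 in SGA CON (16.1) and 13.6 to 18.8 in SGA HF (15.1). The SGA ranges of UHRF1 lay inside the AGA range, which held both the highest and the lowest library. Its log2 fold change for size was 0.21 ± 0.091 (SE, 95% interval 0.016 to 0.40), with an unadjusted p of 0.0349 and an FDR p of 0.699 (edgeR).

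Of the de novo methyltransferases, DNMT3A ranged from 78.9 to 108 CPM in AGA CON (median 85.9), 74.6 to 91.5 in AGA HF (82.9), 70.5 to 89.4 in SGA CON (84.3) and 79.7 to 90.7 in SGA HF (85.3). The AGA CON group was the widest because replicate 2 stood at 108 CPM, with the next library at 88.4 CPM. The log2 fold change of DNMT3A for size was -0.014 ± 0.041 (SE), and its 95% interval of -0.098 to 0.071 was the narrowest among the 8 genes. DNMT3B ranged from 1.97 to 4.37 CPM in AGA CON (median 2.52), 2.46 to 4.25 in AGA HF (3.28), 1.97 to 3.78 in SGA CON (2.48) and 2.7 to 3.95 in SGA HF (3.45). The ranges of SGA and AGA piglets overlapped almost fully on either formula. For DNMT3B the size difference was 0.028 ± 0.15 log2 (SE), and its interval of -0.29 to 0.35 was the widest, so that differences within these bounds in either direction were not excluded.

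The TET oxidases had small negative estimates for size. TET2 ranged from 6.73 to 12 CPM in AGA CON (median 8.47), 7.73 to 9.75 in AGA HF (8.54), 5.26 to 9.03 in SGA CON (8.09) and 7.03 to 9.41 in SGA HF (8.24). The highest TET2 value was again AGA CON replicate 2, and the lowest was SGA CON replicate 6. TET3 ranged from 37 to 44.6 CPM in AGA CON (median 41.4), 37.4 to 48.7 in AGA HF (44.6), 34.4 to 44.2 in SGA CON (41.2) and 37.5 to 50.7 in SGA HF (42.2). The log2 fold changes for size were -0.031 ± 0.083 for TET2 and -0.066 ± 0.059 for TET3 (SE), with FDR p of 0.971 and 0.885 (edgeR). The TET2 estimate was -0.14 log2 with groups and sex alone, and likewise with litter as a block.

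Among the methyl-CpG binding proteins, MBD1 ranged from 48.5 to 61.1 CPM in AGA CON (median 53.3), 47.9 to 57.4 in AGA HF (53.7), 41.9 to 51.4 in SGA CON (49.4) and 45.4 to 58.3 in SGA HF (50.3). On the control formula 5 of the 6 AGA libraries were above the SGA median, and all groups overlapped. Its log2 fold change for size was -0.084 ± 0.052 (SE, 95% interval -0.19 to 0.025), with an FDR p of 0.812 (edgeR). MBD2 ranged from 13.3 to 18.7 CPM in AGA CON (median 14.3), 14.3 to 22.2 in AGA HF (15.8), 14.1 to 17.5 in SGA CON (16.1) and 12.9 to 19.5 in SGA HF (15.7). The groups overlapped, and the highest library was AGA HF replicate 4. For MBD2 the fit gave 0.16 ± 0.074 log2 for size (SE, 95% interval 0.003 to 0.31), with an unadjusted p of 0.0462 and an FDR p of 0.725 (edgeR). The plot of values by group shows all 9 genes with littermates joined.

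**Figure D2:**
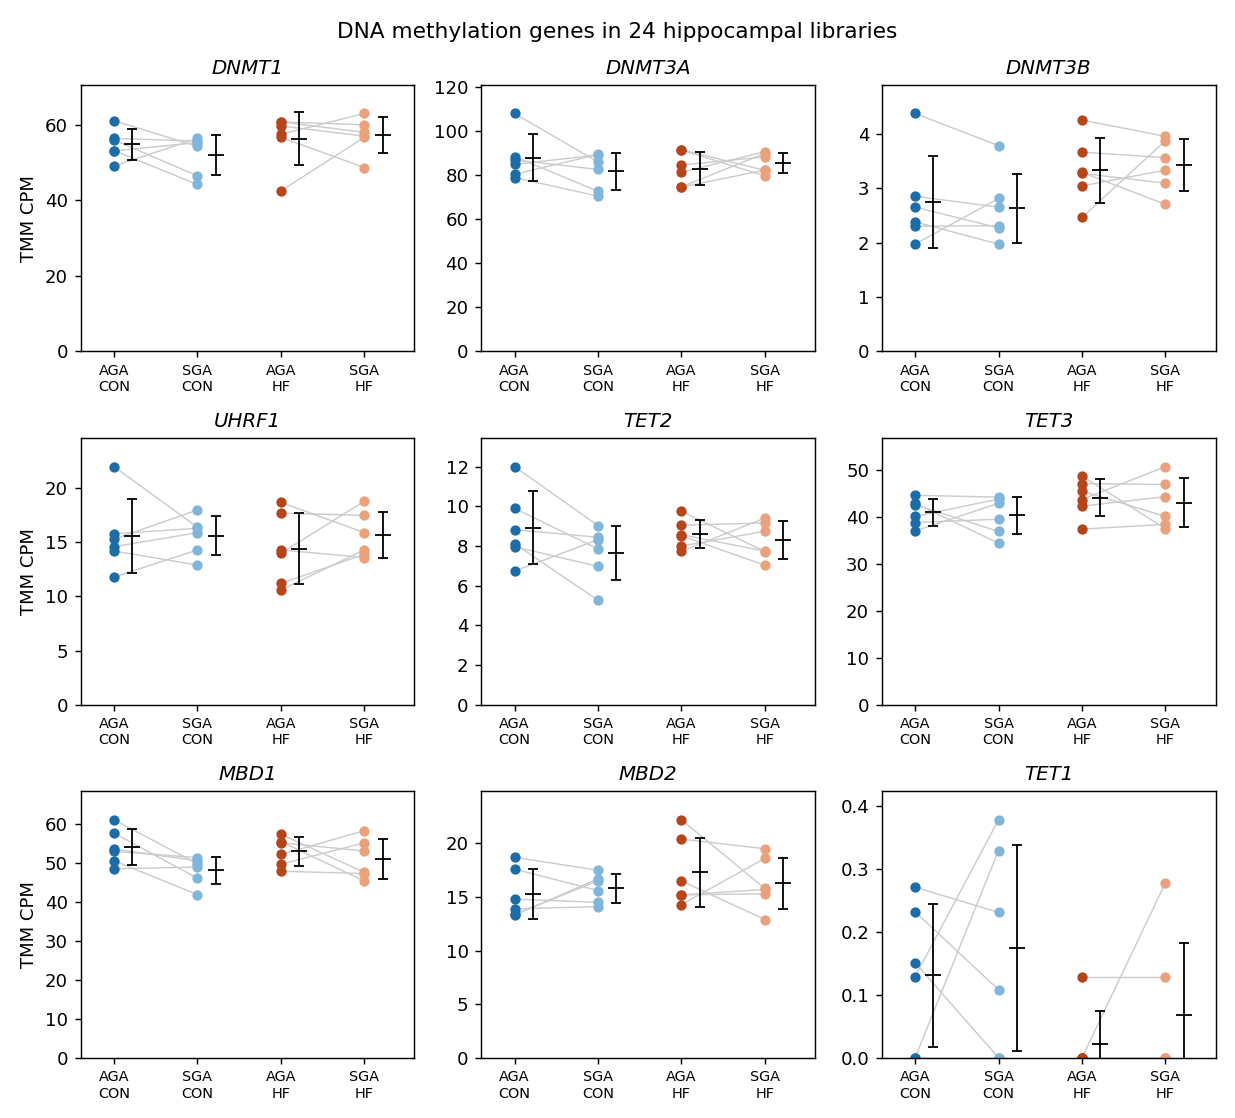
TMM CPM of the 9 genes in each library by group, with each axis starting at 0; grey lines join littermates, and black bars show the mean ± SD of 6 libraries. The groups overlap in every panel, DNMT3A in AGA CON replicate 2 reaches 108, and TET1 does not exceed 0.378.

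Size was then compared within the 12 littermate pairs, as the mean difference in log2 CPM (SGA minus AGA) with an exact sign-flip test over the pairs, two-sided, for every tested gene. At an adjusted p under 0.4 this test called 12.7% of all genes and none of the 8. MBD1 came closest, at -0.11 ± 0.17 log2 (SD, n = 12 pairs), with SGA lower in 9 of 12 pairs, an exact p of 0.0532 and an adjusted p of 0.405. Its pair differences ran from -0.32 to 0.015 in the CON litters and from -0.29 to 0.16 in the HF litters. TET2 was lower in SGA in 8 of 12 pairs, with a mean of -0.13 ± 0.28 (SD) and an exact p of 0.117. Within cohorts its mean was -0.003 in the first, with SGA higher in 4 of 6 pairs, and -0.26 log2 in the second, with SGA lower in 6 of 6 (exact p = 0.0312, the smallest that 6 pairs can give, adjusted p = 0.512).

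For the other 6 genes the pairs split and the mean was small. SGA was higher in 7 of 12 pairs for UHRF1, in 6 for DNMT3A, TET3 and MBD2, and in 4 for DNMT1 and DNMT3B. The mean pair difference of UHRF1 was 0.079 ± 0.26 log2 (SD, n = 12, exact p = 0.315), and that of MBD2 was -0.01 ± 0.26 (exact p = 0.906). Without litter 4 UHRF1 was at 0.12 log2, with the smallest p of the 8 genes (exact p = 0.0967, adjusted p = 0.54). It was at 0.11 log2 without litter 7 and 0.061 without litter 12 (exact p of 0.195 and 0.463). The size estimates of UHRF1 and MBD2 moved with the surrogate variables. With groups and sex alone that of UHRF1 was smaller, at 0.061 log2, and that of MBD2 turned to -0.016, and with the litter pair as a block they were 0.075 and -0.011. DNMT3A differed by -0.029 ± 0.20 (SD, exact p = 0.611), DNMT1 by -0.024 ± 0.20 (exact p = 0.689), TET3 by -0.034 ± 0.19 (exact p = 0.556) and DNMT3B by -0.002 ± 0.27 (exact p = 0.981). The plot of littermate differences shows pairs on both sides of 0 for each gene.

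**Figure D3:**
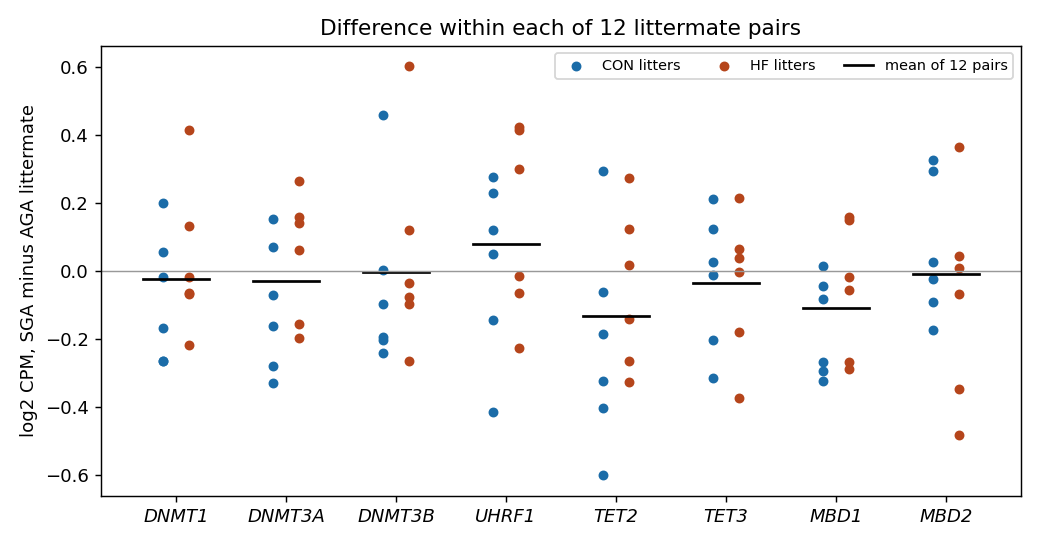
Difference in log2 CPM between SGA and AGA littermates for the 8 tested genes, 1 point per litter coloured by formula, with a bar at the mean of 12 pairs. The mean is farthest from 0 for TET2 at -0.13 and MBD1 at -0.11, and each gene has pairs above and below 0.

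Size was next compared on each formula alone. Between SGA CON and AGA CON none of the 8 was a DEG (background 0.129%), and the smallest p was 0.0625 for MBD2 at 0.20 ± 0.10 log2 (edgeR). With litter as a block MBD2 was at 0.060 log2, and the smallest p was 0.0519, for MBD1 at -0.17 log2 (edgeR). Between SGA HF and AGA HF none was a DEG either (background 0.288%), and the smallest p was 0.0659 for UHRF1 at 0.24 ± 0.13 log2 (edgeR), which was 0.13 log2 with litter as a block. In no pairwise comparison were the 2 groups of any of the 8 genes without overlap, which occurred for 0.368% and 0.374% of all genes in these size comparisons and for 0.135% and 0.165% in the diet comparisons among AGA and among SGA piglets.

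The main effect of diet asked whether piglets fed HF and CON differed over both sizes. None of the 8 genes was a DEG for diet, where 0.159% of all genes were, and their FDR p ranged from 0.576 to 0.995 (edgeR). Their median log2 fold change was 0.010, beside 0.002 over all genes. At an unadjusted p under 0.05, passed by 7.09% of all genes, 2 of the 8 were found, DNMT1 and DNMT3B, both with higher estimates in HF. DNMT1 was not found without AGA CON replicate 2 (p of 0.104), and DNMT3B was not found without SGA HF replicate 4 (0.25 log2, p of 0.152, edgeR).

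DNMT1 had a mean of 56.8 ± 5.72 CPM in HF and 53.5 ± 4.72 CPM in CON (SD, n = 12 each). The fit gave a log2 fold change of 0.15 ± 0.050 (SE, 95% interval 0.043 to 0.25), with an unadjusted p of 0.00797 that ranked 212 of 16326 genes and an FDR p of 0.576 (edgeR). It was 0.088 log2 with groups and sex alone and 0.089 without AGA CON replicate 2. The estimate was positive in AGA piglets, at 0.16 ± 0.070, and in SGA piglets, at 0.13 ± 0.068 log2 (SE). Because formula was given by litter, diet was also compared between litter means, 6 against 6, with an exact permutation test, two-sided. There DNMT1 differed by 0.085 log2, with an exact p of 0.19 and an adjusted p of 1. Within cohorts the litter difference of DNMT1 was 0.025 in the first and 0.14 log2 in the second.

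DNMT3B had a mean of 3.37 ± 0.519 CPM in HF and 2.69 ± 0.715 CPM in CON (SD, n = 12 each). Its log2 fold change of 0.32 ± 0.15 (SE, 95% interval 0.002 to 0.64) was the farthest from 0 among the 8 genes, with an unadjusted p of 0.0487 and an FDR p of 0.733 (edgeR). Between litter means the difference was 0.32 log2, with an exact p of 0.0498 and an adjusted p of 1, a test in which 4.1% of all genes had a p under 0.05 and none passed the adjusted threshold. The CON litter means of DNMT3B ran from 1.28 to 1.59 log2 CPM except for litter 4, at 2.11, and the HF litter means from 1.70 to 2.13. Without litter 4 the litter difference was 0.43 log2 (exact p = 0.00216, the smallest that 5 against 6 litters can give, adjusted p = 0.579). It was smaller without litter 7, at 0.30 log2 (exact p = 0.0844), and without litter 12, at 0.27 log2 (exact p = 0.0974). The exact p was 0.0563 under upper-quartile scaling, and counts summed by litter gave a p of 0.0886 (edgeR). Leaving out AGA CON replicate 2, the AGA piglet of litter 4, from the fit gave 0.42 log2 with an FDR p of 0.403 (edgeR). Within cohorts the litter difference of DNMT3B was 0.20 in the first and 0.44 log2 in the second, and 3 against 3 litters cannot give an exact p below 0.10.

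The other 6 genes had diet estimates between -0.13 and 0.054 log2. UHRF1 was at -0.13 ± 0.093, TET2 at -0.062 ± 0.083, DNMT3A at -0.031 ± 0.041, MBD1 at 0.005 ± 0.052, MBD2 at 0.015 ± 0.075 and TET3 at 0.054 ± 0.059 (SE), with unadjusted p of 0.163 or more (edgeR). Between litter means UHRF1 differed by -0.059, TET2 by 0.047, DNMT3A by -0.005, MBD1 by 0.029, MBD2 by 0.10 and TET3 by 0.097 log2, with exact p of 0.113 or more. TET3 was at 0.14 log2 without litter 7 (exact p = 0.0238, adjusted p = 0.9). It was at 0.091 without litter 4 (exact p = 0.177) and 0.092 without litter 12 (exact p = 0.173). The fit without AGA CON replicate 2 gave -0.012 for UHRF1, 0.045 for TET2, -0.003 for DNMT3A, 0.029 for MBD1, 0.13 for MBD2 and 0.091 for TET3. The diet sign of TET2 was therefore not the same across these comparisons. Between AGA HF and AGA CON (background 0.0674%) and between SGA HF and SGA CON (background 0.0919%) none of the 8 was a DEG.

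**Figure D4:**
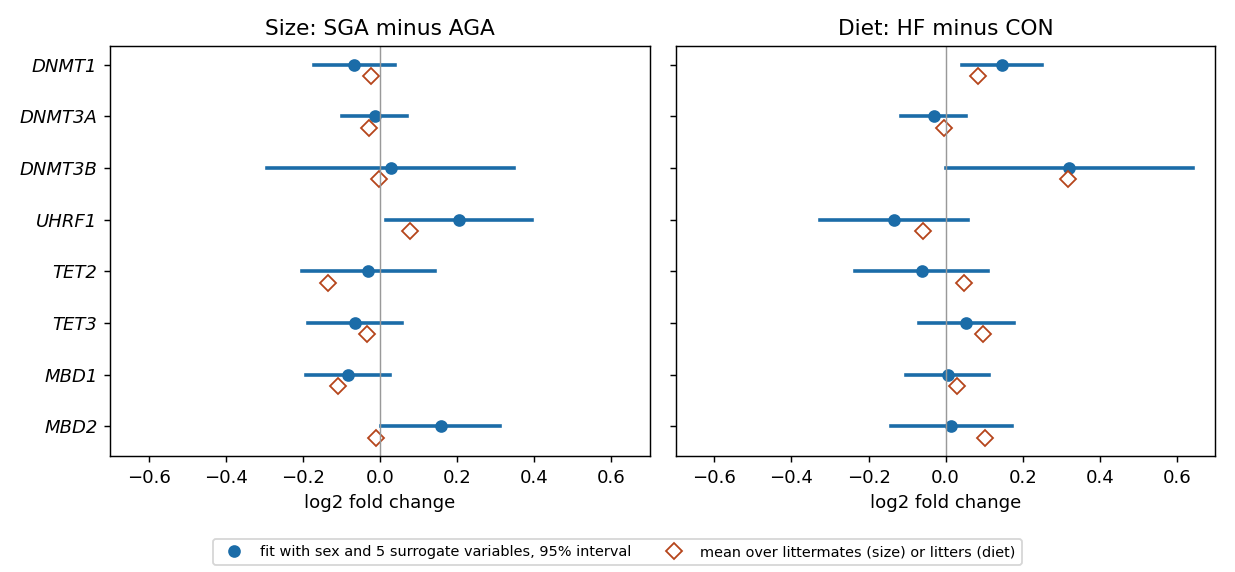
Log2 fold changes of the 8 tested genes for size (left) and diet (right); circles with bars show the fit with sex and 5 surrogate variables and its 95% interval, and open diamonds the mean over 12 littermate pairs or the difference between 6 and 6 litter means. Circle and diamond differ most for MBD2 and UHRF1 in size, and DNMT3B in diet has the same value of 0.32 by both.

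The interaction asked whether the effect of size differed between formulas. None of the 8 genes was a DEG, where 0.049% of all genes were, and none had an unadjusted p under 0.05, which 4.01% of all genes did. The estimates did not exceed 0.085 log2 in size, and the smallest p was 0.43, for MBD1 (edgeR). Without AGA CON replicate 2 they reached -0.16 for MBD2 and -0.12 for DNMT3B, TET2 and DNMT1 turned to -0.022 and 0.006, and the smallest p was 0.298 (edgeR). Between litters, the littermate difference in HF minus that in CON litters was 0.16 log2 for TET2, 0.15 for DNMT3A, -0.14 for MBD2 and 0.11 for DNMT1, where the fit gave 0.080, 0.044, -0.085 and -0.034. The sign of DNMT1 thus differed between them. The exact p of the 8 genes was 0.203 or more, with none of all genes past the adjusted threshold and 4.36% at an unadjusted p under 0.05.

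The libraries at both ends of the summed neuron markers were also at the ends for several of these genes. AGA CON replicate 2 had the lowest summed level of the 5 neuron markers, 2745 CPM against a median of 5480, and the highest of the 5 astrocyte markers, 12340 CPM against 9110. It was the highest of all 24 libraries in 5 of the 8 genes: DNMT3A at 108, MBD1 at 61.1, UHRF1 at 22, TET2 at 12 and DNMT3B at 4.37 CPM. AGA HF replicate 4, second lowest in neuron markers at 3480 CPM and second highest in astrocyte markers at 12020 CPM, was among the top 3 libraries in 5 of the 8 genes and highest in MBD2 at 22.2 CPM. At the other end SGA CON replicate 6 had the highest neuron sum, 7106 CPM, and was the lowest library in 4 genes, DNMT3A at 70.5, MBD1 at 41.9, TET2 at 5.26 and DNMT3B at 1.97 CPM. SGA CON replicate 4, second in neuron sum at 6285 CPM, was among the lowest 3 in 6 of the 8 genes. The share of all tested genes in which these libraries were at an end was not determined. Whether such counts are particular to the 8 genes was therefore not tested. In bulk tissue, fewer cells of a type and less RNA per cell cannot be told apart, and the part of cell composition in these values was not tested. Leaving out AGA CON replicate 2, AGA HF replicate 4, SGA CON replicate 6 or SGA HF replicate 4 gave no DEG among the 8 genes in any of the 7 contrasts.

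**Figure D5:**
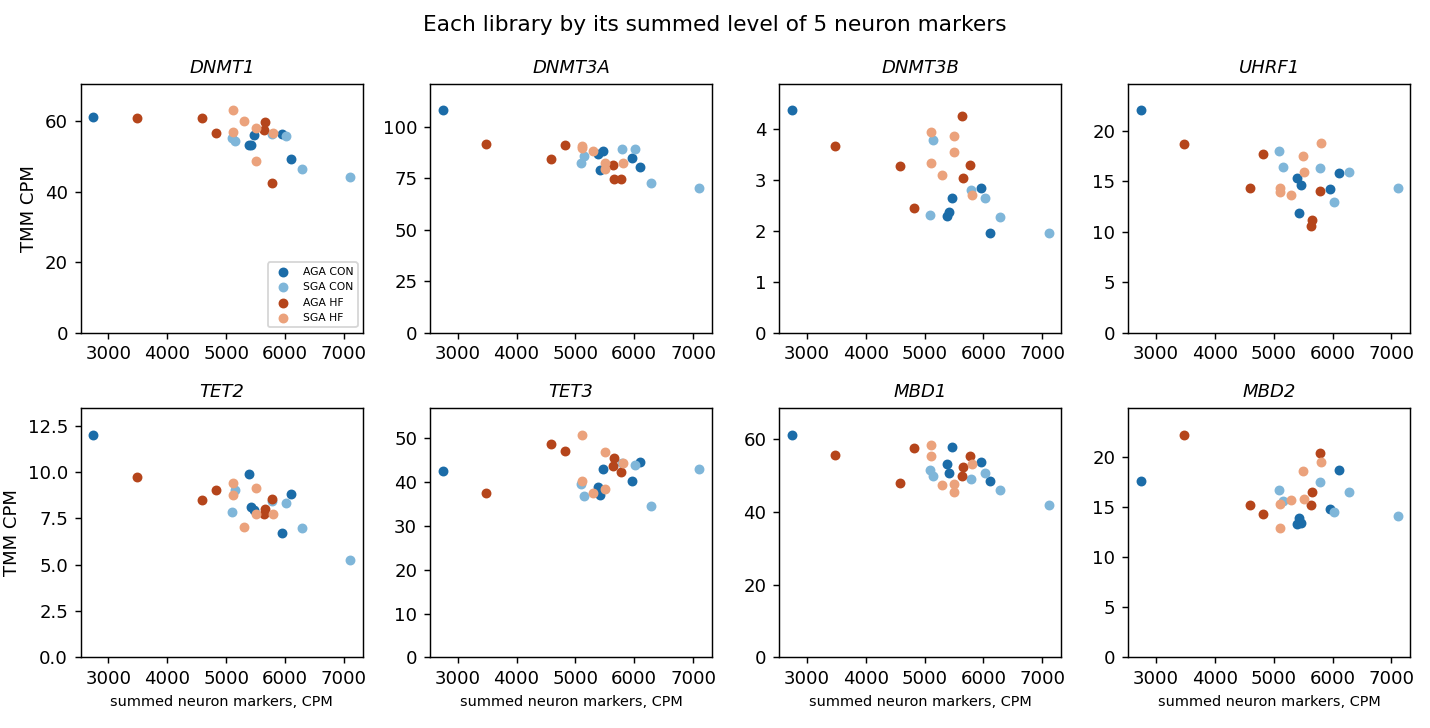
TMM CPM of the 8 tested genes (vertical, from 0) against the summed CPM of 5 neuron markers (horizontal) in each of 24 libraries, coloured by group. AGA CON replicate 2, at 2745 on the horizontal axis, is the highest point for DNMT3A, DNMT3B, UHRF1, TET2 and MBD1, while TET3 and MBD2 do not follow that order.

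The markers of other cell types were not called in size, diet or the interaction, where 0.478%, 0.159% and 0.049% of all genes were. Oligodendrocyte markers (MBP, the most abundant, and 4 others) had a summed mean of 13800 ± 1550 CPM in AGA CON, 13500 ± 3240 in AGA HF, 10500 ± 1630 in SGA CON and 11400 ± 2640 in SGA HF (SD, n = 6). All 5 had negative estimates for size, with a median of -0.19 log2 and 1, CNP, at an unadjusted p under 0.05 (background 10.6%). The vesicular glutamate transporter SLC17A7 was the other marker with an unadjusted p under 0.05 for size, at 0.14 ± 0.042 log2 (SE, FDR p of 0.506, edgeR). The other neuron markers were at -0.008 (SNAP25), -0.020 (GAD2), 0.006 (GAD1) and 0.047 log2 (SYT1), and the median of the 5 was 0.006. For diet (background 7.09%) the markers at an unadjusted p under 0.05 were MBP, GFAP and FLT1 with negative and SOX10, COL1A2, DCN, POMC and GH1 with positive estimates, and estimates had a single sign in the 5 microglia markers (negative, median -0.10 log2), the 4 tested endothelium markers (negative, -0.075) and the 3 tested blood markers (positive, 0.34). For the interaction (background 4.01%) GFAP and GH1 were at an unadjusted p under 0.05, both with positive estimates (0.0297 and 0.00487, edgeR). The 5 astrocyte markers were all positive for it (median 0.14 log2). The 5 meninges and fibroblast markers (-0.334), the 3 tested choroid plexus markers (-0.415) and the 3 tested blood markers (-0.403) were all negative. The part of these markers in the results for the 8 genes was not tested. The summed pituitary markers were high in a single library, SGA HF replicate 4, at 369 CPM against a median of 27.4. GH1, the growth hormone gene, gave 306 CPM of that sum and did not exceed 5.05 CPM in any other library. POMC, the most abundant of the list on average, was also highest in that library, at 48.7 CPM, with the next, SGA HF replicate 5, at 36.2 CPM. GH1 was a DEG between SGA HF and SGA CON with SGA HF replicate 4 (FDR p of 0.0181) and not without it (0.552, edgeR).

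The 8 genes differed in which other genes they resembled. After subtraction of group means from log2 CPM over the 24 libraries, DNMT3A was most like FGF11 (Pearson r = 0.879) and SHANK3, a scaffold of excitatory synapses (r = 0.873). DNMT1 was most like SEMA5A (r = 0.87) and NDST2 (r = 0.86), and TET2 like GPT2 (r = 0.884) and RCBTB2 (r = 0.873). UHRF1 was closest to ACIN1 (r = 0.835) and MAP4K4 (r = 0.813), and TET3 to SESTD1 (r = 0.829) and FBXO32 (r = 0.813). DNMT3B was closest to FLVCR2 (r = 0.812) and FCHO2 (r = 0.784), MBD2 to VASH1 (r = 0.782) and PEA15 (r = 0.775), and MBD1 to NTRK3, a neurotrophin receptor (r = 0.726), and TRIM52 (r = 0.712). Among themselves the closest were DNMT1 and DNMT3A (r = 0.719, and 0.715 without AGA CON replicate 2), then DNMT3A with TET2 (0.689) and with MBD1 (0.659), which were 0.572 and 0.588 without it. Without AGA CON replicate 2 the coefficients with these 16 genes ran from 0.664 to 0.874, and the widest drop was that of DNMT3B with FLVCR2, to 0.707. These coefficients describe the libraries, which share animals, depth and cell composition across genes, and carry no test.

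The other genes of the pathway held no DEG in 6 lists for size, diet or the interaction, where 0.478%, 0.159% and 0.049% of all genes were. With shares this low, lists of this size would mostly hold none. Of the 7 tested readers of methylated DNA, 4 had positive and 3 negative estimates for size, with 1 in each direction at an unadjusted p under 0.05 (background 10.6%). The positive one was ZBTB4, at 0.11 ± 0.047 log2 (SE) with an FDR p of 0.667 (edgeR), and the negative one was MBD3. MBD3, a subunit of the NuRD complex, was at 215 ± 18.0 CPM in SGA and 234 ± 17.0 CPM in AGA (SD, n = 12 each), a log2 fold change of -0.12 ± 0.041 (SE) with an unadjusted p of 0.00618 and an FDR p of 0.56 (edgeR). For diet MBD3 had the smallest p of its list as well, 0.0823 at 0.074 ± 0.041 log2 (edgeR), but the estimate was 0.015 with groups and sex alone and 0.011 with counts summed by litter.

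Of the 12 tested partners that target DNMTs to chromatin, none had an unadjusted p under 0.05 for size (background 10.6%) and 2 did for diet (background 7.09%). CDCA7L was at 7.15 ± 1.19 CPM in HF and 5.65 ± 1.26 CPM in CON (SD, n = 12 each). Its log2 fold change was 0.36 ± 0.13 (SE), with an unadjusted p of 0.0131 and an FDR p of 0.612 (edgeR). Formula was given by litter, while this fit has no litter term and takes each piglet on its own. The same holds for the diet tests of NEIL1, CXXC1, MAT2A and TYMS. NSD1, a histone H3 lysine methyltransferase, had the smallest p for size, 0.142 at -0.067 ± 0.044 log2 (edgeR). Of the 10 tested base excision genes, the glycosylase NEIL1 had the smallest p for both, 0.108 for size at -0.14 ± 0.082 and 0.0258 for diet at 0.20 ± 0.082 log2 (edgeR). The list of genes that partner TET enzymes or supply their cofactor had 9 tested members, none with an unadjusted p under 0.05. IDH2, a mitochondrial isocitrate dehydrogenase, was first for size, at 0.065 ± 0.068 log2 (SE) with an FDR p of 0.907 (edgeR), and CXXC1, which binds unmethylated CpG, first for diet, at 0.084 ± 0.048 log2 (SE) with an FDR p of 0.788 (edgeR), or 0.047 with groups and sex alone.

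Among the 12 genes of methyl donor supply, SHMT1, which feeds one-carbon units into the folate cycle, was at 17.8 ± 4.12 CPM in SGA and 23.4 ± 6.81 CPM in AGA (SD, n = 12 each). Its log2 fold change was -0.27 ± 0.093 (SE), with an unadjusted p of 0.00858 and an FDR p of 0.581 (edgeR), and with litter as a block it was -0.38 with an FDR p of 0.278, past the threshold. MAT2A, which makes S-adenosylmethionine, the methyl donor of DNMTs, was at 21.0 ± 5.91 CPM in HF and 17.8 ± 3.99 CPM in CON, or 0.18 ± 0.076 log2 (SE) with an FDR p of 0.666 (edgeR). Replication and mitosis genes, to which UHRF1 and DNMT1 are tied in dividing cells, were low, with a sum over 11 genes of 48.3 to 83.4 CPM per library. Their median estimate in the fit was 0.094 log2 for size, with 8 of 11 positive, and -0.018 for diet, beside medians of -0.002 and 0.002 over all genes, of which 49.2% were positive for size. Of these 8, MCM3, MCM5 and RRM2 had a lower mean CPM in SGA than in AGA, and MKI67, CCNB1, CDK1, MCM2 and MCM4 a higher one. The mean sum was 63.8 CPM in AGA CON, 65.8 in AGA HF, 61 in SGA CON and 65.5 in SGA HF. MKI67, a proliferation marker, was at 11.7 ± 2.15 CPM in SGA and 10.9 ± 3.30 CPM in AGA (SD, n = 12 each), and the fit gave a log2 fold change of 0.28 ± 0.096 for size (SE), with an unadjusted p of 0.00864 and an FDR p of 0.581 (edgeR), or 0.11 log2 with groups and sex alone. TYMS, thymidylate synthase, had 0.46 ± 0.18 log2 for diet (SE), with an unadjusted p of 0.0155 and an FDR p of 0.629 (edgeR).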

How the data were processed

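Total hippocampal RNA was made into stranded polyA libraries and sequenced. Per the labels and the study's methods, the authors trimmed reads with Trimmomatic 0.33, aligned them to Sscrofa10.2 with STAR 2.5.2a, and deposited whole-number counts per Entrez gene from featureCounts (Subread 1.5.0), unfiltered and not normalized. Reads that matched several places were not counted in the default setting. An entry without an identifier (0.613 to 1.62% of reads) was left out. Symbols came from a Sscrofa11.1 table (23036 of 38882 identifiers matched), and coordinates from the deposited files.

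The 16326 genes that reached 1 CPM in 3 or more libraries were normalized by TMM and fitted in R 4.3.3 with edgeR 4.0.16 (glmQLFit and glmQLFTest) on group, sex and 5 surrogate variables (sva 3.50.0), over 7 contrasts, after the study's design. Exact tests used log2 CPM (prior count 2), with 2048 sign flips over 12 pairs and 462 distinct splits of 12 litters, adjusted over all genes. In simulated counts of 16326 genes, the size contrast called 57% of genes changed by 0.5 log2 and 82% of those changed by 1. These shares describe simulated counts only, and cover neither smaller changes nor the diet and interaction contrasts. The size estimates of the tested members did not exceed 0.206 log2 in either direction. How often changes that small would be called was therefore not tested. Depth sets the precision, so p-values for low genes are the least informative.

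The labels give litter, so replicate numbers pair the samples within a diet. Littermate deviations had a mean correlation of 0.154 (0.014 to 0.329), against 0.031 between other litters of a diet and cohort. Alternatives were the litter block, counts summed by litter, no surrogate variables, cohort terms, limma 3.58.1, DESeq2 1.42.0, upper-quartile scaling, other filters, each cohort, and single libraries or litters left out, the last chosen after seeing the data. The genes, lists and tests were chosen with earlier results of these data known. Named genes were the 9 members, in each pathway list any DEG and the gene with the smallest p for size and for diet, and for each member the 2 genes with the highest r. The cell markers named (SNAP25, SYT1, SLC17A7, GAD1, GAD2, MBP, CNP, GFAP, COL1A2, DCN, SOX10, FLT1, POMC and GH1) and ZBTB4 fall outside this rule and were named after their values were seen. Listed symbols that matched no entry (MBD4, EHMT1, TRIM28, TDG, GADD45A, MCM6, MCM7, BIRC5, RBFOX3, TUBB3, CDH5 and HBA) were not analysed here, and 1 listed gene is not reported here.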

Additional observations from a re-analysis of the deposited data

Results flagged for a closer look

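Within each group of 6 libraries, a library was singled out where its gap to the nearest other exceeded 0.625 of the group's range. This was met in 4 of the 36 combinations of gene and group. Chance gives this in about 1 in 20 independent groups, but these are not independent: both DNMT3 genes met it in the same library, and for TET1 a single read beside libraries at 0 always meets it. DNMT1 in AGA HF replicate 5 was low, at 42.5 CPM with the next library at 56.7. AGA CON replicate 2 was high in DNMT3A, at 108 CPM with the next at 88.4, and in DNMT3B, at 4.37 CPM with the next at 2.85. TET1 in AGA HF replicate 3 was at 0.129 CPM, a single read, with the other 5 libraries at 0. No gene of the set had an effect of size that differed between formulas by the interaction test.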

How the results depend on the processing

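None of the 8 tested genes became a DEG in any contrast under any alternative, while the number of DEGs among all genes for size was 78 in the test reported above and 0 within either cohort, 13 without surrogate variables, 53 with limma voom, 210 with DESeq2, 420 with the replicate block and 1200 with each contrast adjusted on its own. With single libraries left out it was 50 (SGA HF replicate 4), 129 (AGA HF replicate 4), 382 (AGA CON replicate 2) and 410 (SGA CON replicate 6). For diet it ran from 26 to 0 without surrogate variables and 416 without AGA CON replicate 2. The pairing by litter (replicate block) changed no call among the 8, and of the pathway genes named it changed 1, SHMT1 (-0.382 for size, FDR p 0.278). The other calls gained among the pathway genes named were MBD3 (0.269), SHMT1 (0.293) and MKI67 (0.293) for size when each contrast was adjusted on its own, and CDCA7L (0.314) and TYMS (0.381) for diet without AGA CON replicate 2, all given as FDR p. GH1 was called in 3 further contrasts without AGA CON replicate 2 (FDR p from 0.0079 to 0.3) and in 2 without SGA CON replicate 6 (0.327 and 0.358). Of 569 single-gene values under alternatives, 526 kept direction and call, and 37 changed sign, none of them past the threshold on either side.

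The sign changes for size and diet, as log2 values, were these, and the cause was not tested. For size, MBD2 turned to -0.0105 with the replicate block, -0.0159 without surrogate variables, -0.0143 with cohort terms and -0.0501 in cohort 2. DNMT3B turned to -8.11e-05, -0.0109, -0.0101 and -0.059 in the same settings, and with single libraries left out it ran from -0.000586 (AGA HF replicate 4) to 0.0675 (AGA CON replicate 2). For diet, TET2 turned to 0.0186 with counts summed by litter, 0.0308 without surrogate variables, 0.0341 with cohort terms and 0.115 in cohort 2, and ran from -0.0874 (SGA HF replicate 4) to 0.0448 (AGA CON replicate 2) with single libraries left out. MBD1 for diet was -0.000311 under upper-quartile scaling and ran from -0.0144 (AGA HF replicate 4) to 0.0292 (AGA CON replicate 2), with -0.000196 without SGA CON replicate 6. MBD2 for diet was -0.00202 with 1 CPM required in 6 libraries. In cohort 1, MBD3 and CXXC1 for diet were -0.0316 and -0.107, and in cohort 2, DNMT3A and UHRF1 for diet were 0.0703 and 0.105.

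In the exact tests by litter, MBD2 for size was 0.0265 in cohort 1, 0.00502 without litter 4 and 0.0333 without litter 7. DNMT3B for size was 0.00643 under upper-quartile scaling, 0.0563 in cohort 1, 0.0158 without litter 4, 0.0011 without litter 7 and 0.02 without litter 12. For diet, TET2 was -0.0276 in cohort 1 and -0.0136 without litter 12, and MBD1 was -0.000105 without litter 12. UHRF1 and DNMT3A for diet were 0.0974 and 0.0709 in cohort 2, and 8.17e-05 and 0.0334 without litter 4. Depth limits DNMT3B and TET1 most.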
